A study of Mus musculus with 6 samples.

Results

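The polyamine synthesis genes Odc1, Amd1, Srm and Sms, their regulators Oaz1 and Azin1, the catabolic gene Sat1 and the arginase gene Arg2 were examined in mouse blastocysts grown in medium with a mimic of miR-30d. The genes were chosen by name, and array features were assigned to them by gene symbol, with older symbols matched through the Entrez identifier. Of the 8 genes 7 had at least 1 feature, which gave 16 features of the 33026 that carry a gene symbol, and all 16 lay above the filter on dim features. No feature was assigned to Amd1, and its near-identical copy Amd2 is described in its place.

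Whole day 5 blastocysts of the B6C3F1 hybrid strain were compared after 72 hours with 400 nM of miR-30d mimic or with 400 nM of a scrambled oligonucleotide carrying Alexa 488, with 3 arrays per group. The mothers were females 6 to 8 weeks old, given 10 IU of pregnant mare serum gonadotropin and, 48 hours later, 10 IU of hCG, and the embryos were flushed from the oviduct on day 2. Both groups thus share superovulation, culture from day 2 and a synthetic RNA in the medium, and no untreated group was analysed here. The dye is named for the scramble alone, and effects of dye or oligonucleotide and of miR-30d cannot be told apart. Per condition 30 embryos were taken, and each array received labelled material made from 50 ng of total RNA. The titles call the replicates biological, but nothing says whether the cultures came from separate matings, and the p-values therefore reflect only the spread among these 6 arrays, which may be partly technical. Fewer cells of a type and less RNA per cell cannot be told apart in whole embryos.

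Polyamines are small positively charged molecules that bind RNA and DNA and are needed for translation and growth. Ornithine decarboxylase (Odc1) makes putrescine from ornithine, S-adenosylmethionine decarboxylase (Amd1) provides the aminopropyl donor, and the spermidine and spermine synthases (Srm and Sms) add it stepwise. Antizyme (Oaz1) binds ornithine decarboxylase and sends it to the proteasome, the antizyme inhibitor (Azin1) relieves this, and spermidine/spermine acetyltransferase (Sat1) starts breakdown and export. In the mouse, polyamines are known for their part in waking the dormant blastocyst, and embryos without Odc1 die soon after implantation. Much of the control of these enzymes acts on translation and protein turnover, which transcript signals do not read.

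The mimic acts through the seed that the miR-30 family shares, bases 2 to 8 of the mature microRNA. Examples of mature mouse microRNAs with this seed in the RefSeq table of GRCm38.p6, not a full list, are shown with the seed in capitals. miR-30d itself is only named here.
mmu-miR-30a-5p: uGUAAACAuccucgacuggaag
mmu-miR-30c-5p: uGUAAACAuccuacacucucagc
mmu-miR-30e-5p: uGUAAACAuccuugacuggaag
mmu-miR-384-5p: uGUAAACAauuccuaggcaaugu

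The 7 measured genes showed no difference between mimic and scramble that passed the test. With the mimic 9 of the 16 features were higher and 7 lower; log2 differences (mimic minus scramble) ran from -0.33 to 0.24, at a median of 0.02, beside a median of 0.03 over all 24769 features tested. In limma with Benjamini-Hochberg adjustment over all these features, 0 of the 16 passed an adjusted p of 0.05 (0% of all features passed), and 0 of the 16 had an unadjusted p under 0.05 (3.11% of all features, 1.78% higher and 1.32% lower with the mimic). The mimic and scramble values overlapped in all 16, while they did not overlap in 9.8% of all features (5.86% higher and 3.94% lower with the mimic). The 95% interval of the difference lay within 2-fold either way for 15 of the 16 (73.1% of all features), the exception being 1 Azin1 feature. Taken by the brightest feature of each gene, 3 genes lay above and 4 below 0, the median being -0.0005, beside 0.02 over all genes. With the replicate number as a block, again 0 of the 16 passed (0.00404% of all features). The smallest unadjusted limma p among them was then 0.0689, so 0 of the 16 lay under 0.05, beside 7.09% of all features.

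**Figure D1:**
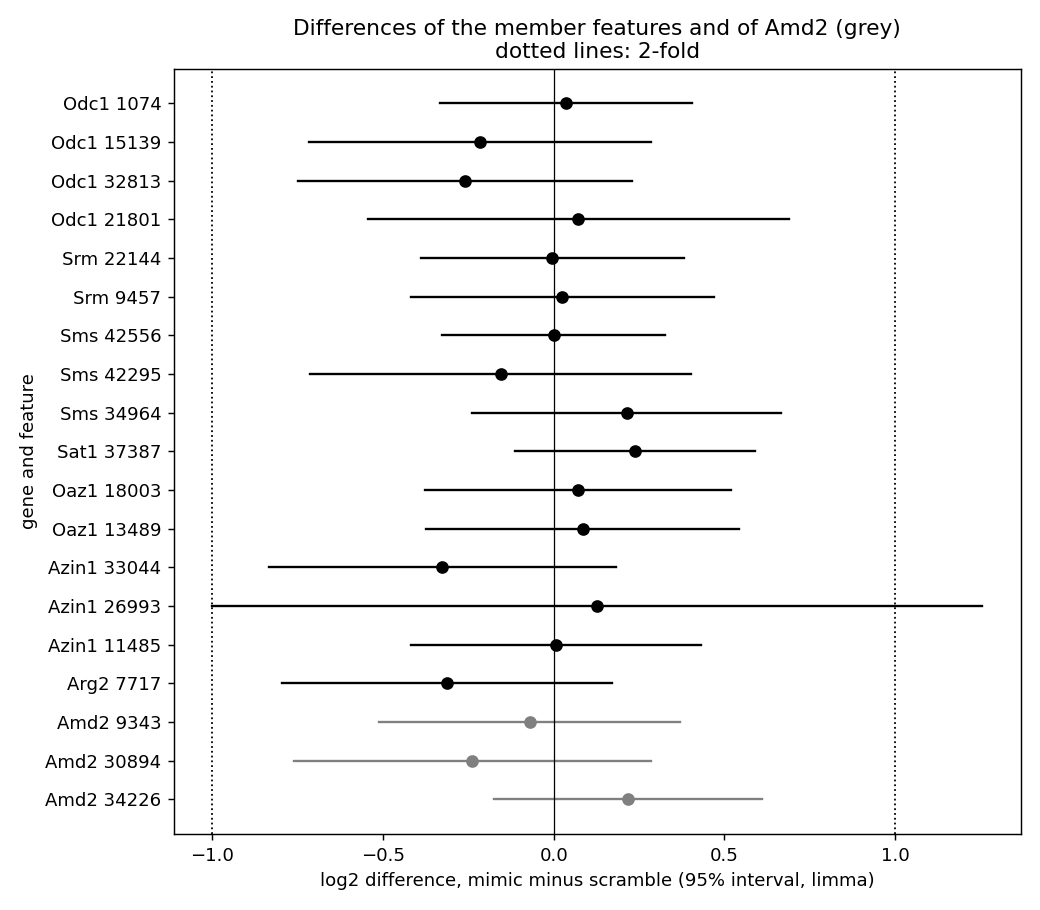
Log2 difference (x axis, mimic minus scramble) of each of the 16 features and of the 3 Amd2 features (y axis, gene and feature number), as points with the 95% interval from limma. All intervals include 0, and only that of Azin1 feature 26993, about 1 log2 unit below 0 to 1.25 above, reaches the dotted 2-fold lines.

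The replicate 1 arrays of both groups stood apart from the rest, and this touches many of these features. Both replicate 1 arrays read below all 4 other arrays in 8 of the 16 features, beside 25.6% of all features, and above them in 0 of the 16, beside 12.3%. Those 8 belong to Odc1, Azin1 and Oaz1 with 2 each and to Srm and Sms with 1 each, and Sat1 and Arg2 were not among them. Taken by the brightest feature of each gene, only Oaz1 (18003) showed this. Features of the same gene are not separate genes, so the count of 8 is not a count of genes. The replicate 1 arrays also held fewer distinct values, 2683 for mimic and 2108 for scramble, against 4410 to 5979 on the other arrays. The part of this pattern in the group differences was not tested. Without both replicate 1 arrays the log2 differences of the 16 features ran from -0.32 to 0.21.

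**Figure D2:**
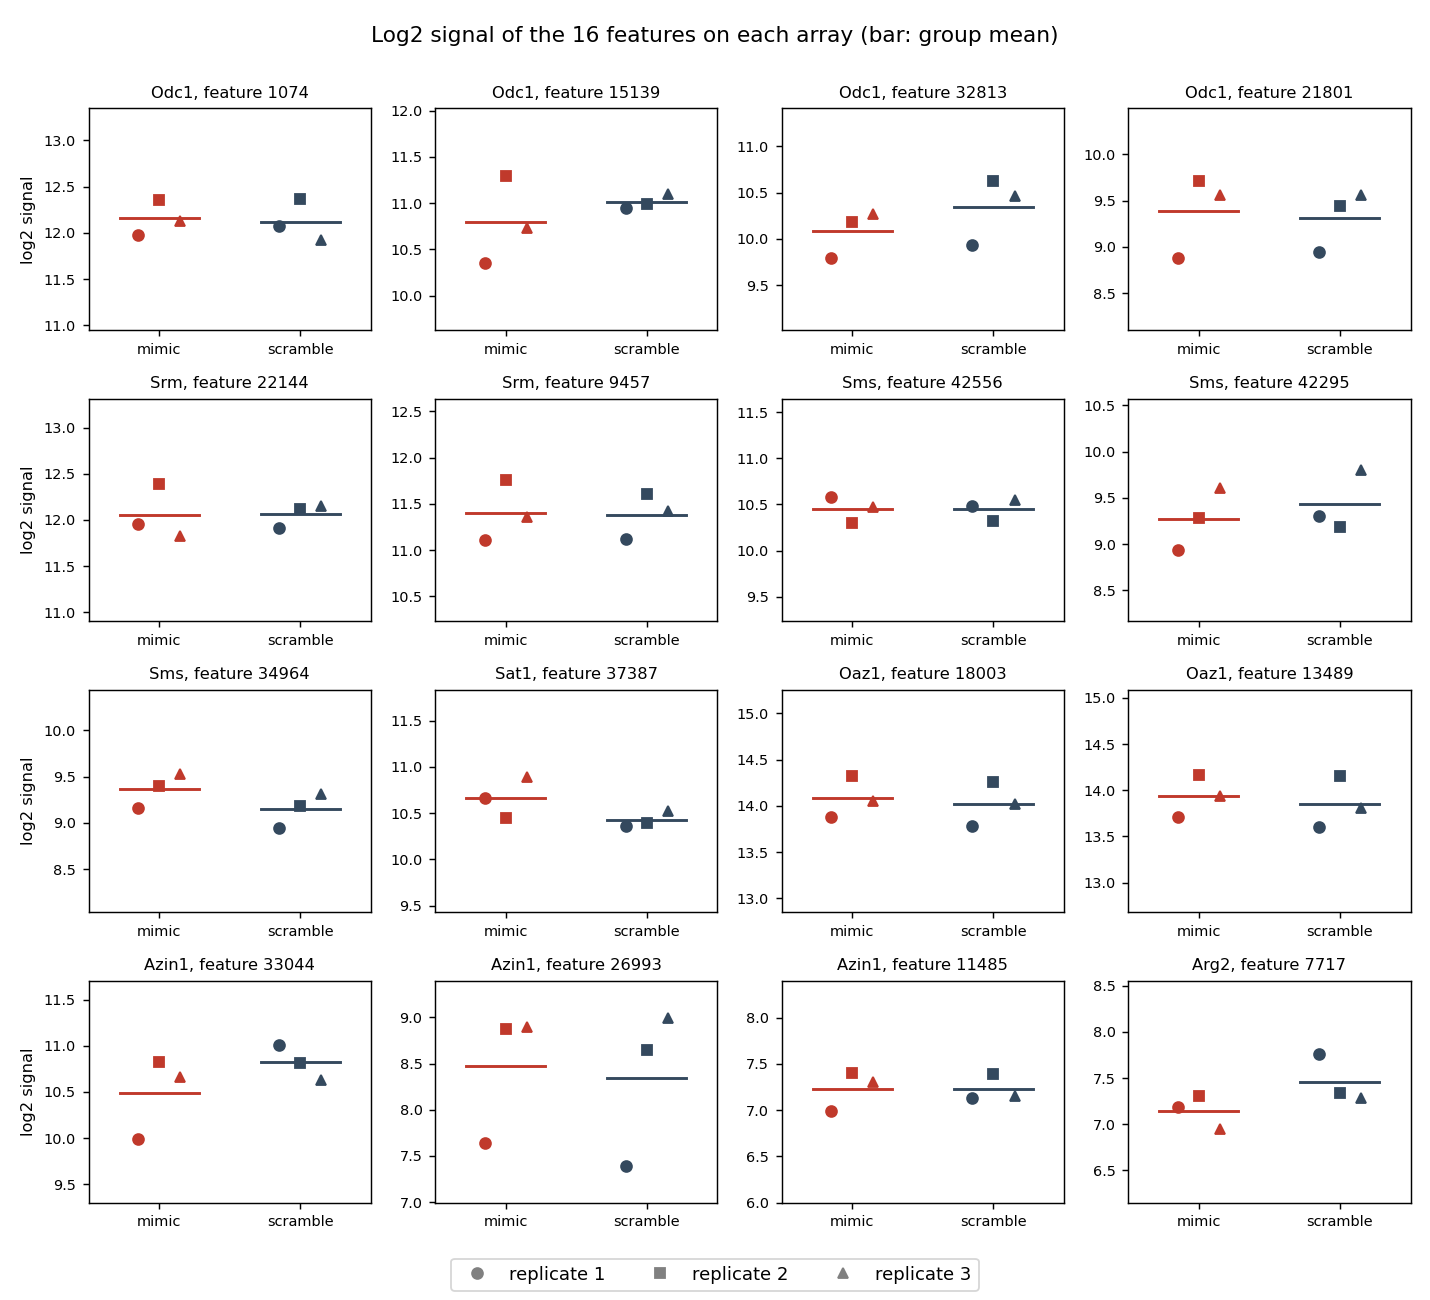
Log2 signal (y axis) of each feature on the 3 mimic and 3 scramble arrays (x axis), with symbols for the replicate number and a bar for the group mean. Every panel spans the same height, and the groups overlap in each; replicate 1 is lowest in both groups in features such as Oaz1 18003 and Azin1 26993.

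Arginase 2, encoded by Arg2, is the mitochondrial arginase and releases ornithine, the substrate of Odc1, from arginine. Its feature (7717) read 7.19, 7.30 and 6.95 on the mimic arrays, against 7.75, 7.33 and 7.29 on the scramble arrays. Only scramble replicate 1 stood clearly above the others, and mimic replicate 2 lay above scramble replicate 3, so the groups overlapped. The means were 7.15 ± 0.18 with the mimic and 7.46 ± 0.26 with scramble (SD, n = 3 each). The log2 difference of -0.31 (SE 0.21) had a 95% interval from -0.80 to 0.17 and did not pass (limma adjusted p = 0.979; exact two-sided permutation p = 0.2, where 0.1 is the smallest possible). It was -0.17 without scramble replicate 1. The mimic was lower in all 3 same-numbered pairs, by -0.57, -0.03 and -0.34, a direction that 13.2% of all features shared. The mimic mean of 7.15 lay below the filter level of 7.16, so the feature was tested only because of its scramble signal. Its lower reading with the mimic therefore shows nothing further. These Arg2 signals lie among those of features without a gene name, whose median level was 7.20 and upper quartile 7.55. The 3 other genes whose values over the 6 arrays, centred on their means, lay closest to those of Arg2 were Olfr464, Hdc and Tarm1, with root mean square differences of 0.027, 0.041 and 0.047 log2 units, beside a spread of Arg2 about its own mean of 0.24. All 3 read between 6.92 and 7.88, also near the dim end.

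Odc1, the entry enzyme of the pathway, had 4 features that did not share a direction. The brightest (1074) read 11.98, 12.36 and 12.13 with the mimic, against 12.07, 12.37 and 11.92 with scramble. The groups were interleaved, with means of 12.16 ± 0.19 with the mimic and 12.12 ± 0.23 with scramble (SD, n = 3 each), and the log2 difference of 0.04 (SE 0.16) had a 95% interval from -0.33 to 0.40, or 0.793-fold to 1.32-fold. Feature 15139 read 10.36, 11.30 and 10.74 with the mimic, against 10.95, 10.99 and 11.10 with scramble. Here the mimic arrays held both the lowest and the highest value, and the difference of -0.22 (SE 0.22) was -0.47 without mimic replicate 2 (limma unadjusted p = 0.0279) and 0.0031 without mimic replicate 1. Feature 32813 read 9.80, 10.18 and 10.26 with the mimic, against 9.93, 10.63 and 10.46 with scramble. It was lower with the mimic in all 3 same-numbered pairs, by -0.14, -0.44 and -0.20, with a difference of -0.26 (SE 0.22), and replicate 1 was the lowest array of each group. This was -0.46 without scramble replicate 1 (limma unadjusted p = 0.0336), -0.32 without both replicate 1 arrays (limma unadjusted p = 0.0412) and -0.12 without mimic replicate 1 or scramble replicate 2. Feature 21801 read 8.88, 9.72 and 9.57 with the mimic, against 8.95, 9.44 and 9.56 with scramble, a difference of 0.07 (SE 0.27). None of the 4 passed, with exact two-sided permutation p-values of 0.8, 0.5, 0.4 and 0.7, and the sign of feature 1074 turned without mimic replicate 2 or scramble replicate 3. Closest to feature 1074 over the 6 arrays were Ctdspl, Zfp9 and Wdr95, at root mean square differences of 0.037, 0.038 and 0.043, beside a spread of Odc1 about its own mean of 0.17. Ctdspl read between 11.44 and 11.87, but Zfp9 (7.02 to 7.46) and Wdr95 (6.95 to 7.42) read near the dim end.

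Odc1 is a known target of the Myc transcription factors, whose E-boxes in this gene lie in its first intron, and of Sp1, which binds GC boxes. The 250 bases before the Odc1 start (RefSeq, GRCm38.p6, chr12:17544623-17544872, plus strand) are shown as the stretch just upstream of the annotated start. GC boxes (GGGCGG or its reverse complement CCGCCC) are in capitals.
Odc1: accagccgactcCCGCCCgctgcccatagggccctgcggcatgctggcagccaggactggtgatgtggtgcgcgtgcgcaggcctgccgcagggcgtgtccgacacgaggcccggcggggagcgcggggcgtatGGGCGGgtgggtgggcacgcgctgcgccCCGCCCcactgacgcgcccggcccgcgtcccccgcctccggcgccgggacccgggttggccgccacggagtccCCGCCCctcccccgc
This window held 4 GC boxes, and 32.7% of 32851 such windows held at least 1 on either strand. It held no CACGTG, the palindromic E-box, present in 6.02%. Windows were found for Odc1, Amd1, Sms, Sat1 and Oaz1. GC boxes also lay in those of Amd1 (1) and Sat1 (2) and in 1 of the 2 of Sms (4), but not in that of Oaz1. Among all these windows the E-box occurred in 1, the more upstream of the 2 of Sms. There it begins 196 bases before the start (chrX:157492466-157492495, minus strand, E-box in capitals).
Sms: cccagcggggttCACGTGcatttaaagaaa

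Oaz1, whose translation requires a ribosomal frameshift that polyamines promote, was read alike by its 2 features. Feature 18003 read 13.88, 14.33 and 14.06 with the mimic, against 13.78, 14.26 and 14.02 with scramble. Replicate 1 was lowest and replicate 2 highest in both groups, so the values lay far apart between replicates and close together between groups. The mimic was higher in all 3 same-numbered pairs, by 0.11, 0.07 and 0.03, and feature 13489 likewise by 0.11, 0.01 and 0.13, a direction shared by 19.8% of all features. The log2 differences were 0.07 (SE 0.20, 95% interval -0.38 to 0.52) and 0.08 (SE 0.20, 95% interval -0.38 to 0.54). Neither passed (limma adjusted p = 0.986 for each), also not with the replicate block (unadjusted p = 0.423 for feature 18003 and 0.346 for feature 13489). Both differences turned negative without mimic replicate 2 or without scramble replicate 1.

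Azin1, a relative of ornithine decarboxylase that has lost the enzyme activity, had the lowest difference of the 16 features and also the widest interval. Its brightest feature (33044) read 9.99, 10.83 and 10.67 with the mimic, against 11.01, 10.82 and 10.63 with scramble. Mimic replicate 1 alone was low, and the other 2 mimic arrays lay within the scramble range. The difference of -0.33 (SE 0.22) did not pass (limma adjusted p = 0.979). Leaving out mimic replicate 1 gave -0.07, and leaving out both replicate 1 arrays gave 0.02. Feature 26993 read 7.64, 8.88 and 8.89 with the mimic, against 7.39, 8.64 and 9.00 with scramble. Replicate 1 read lower than the mean of replicates 2 and 3 in both groups, by -1.24 with the mimic and -1.43 with scramble, while the group difference was 0.13 (SE 0.50). It went to -0.35 without scramble replicate 1 and to 0.54 without mimic replicate 1. The third feature (11485) read 6.99, 7.4 and 7.30 with the mimic, against 7.13, 7.39 and 7.15 with scramble, near the dim end, with a difference of 0.0057 (SE 0.19).

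Amd1 encodes S-adenosylmethionine decarboxylase, and Amd2 is an intronless copy of it on the same chromosome. The bases around the annotated starts of both (RefSeq, GRCm38.p6, minus strand) are shown, since they bear on what the Amd2 features read. Capitals mark the first 30 bases of an identical run of 48, which stops where the Amd1 sequence used here ends and may be longer. The small letters are the 30 bases upstream of that run. The stretches shown lie at chr10:40302157-40302216 for Amd1 and chr10:35711862-35711921 for Amd2.
Amd1: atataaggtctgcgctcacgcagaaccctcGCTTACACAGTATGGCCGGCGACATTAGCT
Amd2: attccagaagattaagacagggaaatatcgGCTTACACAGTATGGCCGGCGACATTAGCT
Before the run 7 of 30 positions match, and the run begins at base 3 of the annotated Amd1 transcript and at base 1 of Amd2. The probe sequences were not used here, so signal from Amd1 and Amd2 transcripts cannot be told apart in these features.

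The 3 Amd2 features had log2 differences in both directions. Feature 9343 read 10.79, 11.24 and 11.36 with the mimic, against 10.92, 11.46 and 11.22 with scramble, a difference of -0.07 (SE 0.19). Feature 30894 read 10.14, 10.00 and 10.75 with the mimic, against 10.45, 10.30 and 10.87 with scramble. It was lower in all 3 same-numbered pairs, by -0.30, -0.29 and -0.12, although the groups overlapped (difference -0.24, SE 0.23, unadjusted p with the replicate block 0.0655). Feature 34226 read 10.09, 10.32 and 10.23 with the mimic, against 9.74, 9.99 and 10.26 with scramble, a difference of 0.22 (SE 0.17). None of the 3 passed.

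Srm, spermidine synthase, had the smallest differences of the pathway enzymes after the brightest Sms feature. Feature 22144 read 11.95, 12.39 and 11.83 with the mimic, against 11.91, 12.11 and 12.15 with scramble. The mimic arrays enclosed the scramble arrays, and the difference was -0.0041 (SE 0.17), with a 95% interval from -0.39 to 0.38. Feature 9457 read 11.11, 11.76 and 11.36 with the mimic, against 11.12, 11.61 and 11.42 with scramble, a difference of 0.02 (SE 0.20). A change beyond 1.38-fold up or 0.748-fold down lay outside the intervals of both features.

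Sms, the X-linked spermine synthase gene, had 3 features with 3 different outcomes. The brightest (42556) read 10.58, 10.30 and 10.47 with the mimic, against 10.48, 10.32 and 10.55 with scramble. Its difference was -0.0005 (SE 0.14), with a 95% interval from -0.33 to 0.33, the narrowest of the 16. Feature 42295 read 8.94, 9.28 and 9.61 with the mimic, against 9.31, 9.18 and 9.80 with scramble, a difference of -0.15 (SE 0.25). Feature 34964 read 9.16, 9.39 and 9.53 with the mimic, against 8.95, 9.18 and 9.31 with scramble. Within same-numbered pairs the mimic was higher by 0.22, 0.21 and 0.21, nearly the same amount each time. This feature still did not pass, either in the unpaired fit (difference 0.21, SE 0.20, limma adjusted p = 0.979) or with the replicate block (limma unadjusted p = 0.186), and the brighter feature of the gene did not share the difference.

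Sat1, the acetyltransferase that the cell induces when polyamines are in excess, had the highest difference of the 16 features. Its feature (37387) read 10.66, 10.44 and 10.90 with the mimic, against 10.37, 10.40 and 10.52 with scramble. Of the mimic arrays 2 lay above all scramble arrays and mimic replicate 2 lay within their range. The means were 10.67 ± 0.23 with the mimic and 10.43 ± 0.08 with scramble (SD, n = 3 each). The difference of 0.24 (SE 0.15), or 1.18-fold, had a 95% interval on the log2 scale from -0.11 to 0.59 and did not pass (limma adjusted p = 0.979; exact two-sided permutation p = 0.2). It was higher in all 3 same-numbered pairs, by 0.29, 0.05 and 0.37 (limma unadjusted p with the replicate block 0.0769). Omitting any single array left the difference between 0.12 and 0.35, and omitting both replicate 1 arrays gave 0.21.

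In 6 lists of genes that border on the pathway, 0 genes passed the adjusted threshold in either direction (limma; 0% of 17399 genes by their brightest feature, of which 3.2% had an unadjusted p under 0.05). The list of arginine and ornithine supply had 14 genes tested of 16, 10 above 0 and 4 below. Its median log2 difference was 0.17, beside 0.02 over all genes. The list is broader than its name: it also held Nos1, Nos2, Nos3, Otc, Gatm and Azin2, the last counted under polyamine catabolism as well. Nos2, Nos3, Otc and Azin2 were among the 10 above 0 and Nos1 among the 4 below. Among the 10, Otc and Slc25a2 had scramble means of 7.07 and 7.161, below the filter level of 7.163. They were tested only because of their mimic signal, so their place among the 10 shows nothing further. In this list 3 genes had an unadjusted p under 0.05 on the higher side (1.68% of all genes) and 1 on the lower side (1.51%). Slc7a1, the main cationic amino acid transporter of many cells, read 13.04, 13.34 and 13.09 with the mimic, against 12.36, 13.05 and 12.62 with scramble. Scramble replicate 2 alone reached the mimic values, just above mimic replicate 1, and the difference was 0.48 (SE 0.19, limma adjusted p = 0.979). Slc7a3, another arginine and lysine transporter, read 11.30, 11.77 and 11.60 with the mimic, against 10.91, 11.36 and 11.11 with scramble. Its difference of 0.43 (SE 0.17) was made up of similar differences within same-numbered pairs, 0.39, 0.41 and 0.49.

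Ass1, which makes argininosuccinate on the way to arginine, and Slc7a2 complete these 4 genes and were picked out after their values were seen. Ass1 read 13.15, 13.63 and 13.30 with the mimic, against 12.87, 13.02 and 13.05 with scramble on its brighter feature. The groups did not overlap there or on the second feature, and the differences were 0.38 (SE 0.16) and 0.40 (SE 0.14), each with an exact permutation p of 0.1. Slc7a2, a transporter of the same family read near the dim end, had 6.83, 7.29 and 7.11 with the mimic, against 7.51, 7.45 and 8.25 with scramble, and its difference of -0.66 (SE 0.28) was -0.40 without scramble replicate 3. Its mimic mean of 7.08 lay below the filter level of 7.16, so it was tested only because of its scramble signal, and its place in the counts on the lower side shows nothing further. Over the list 2 genes lay without overlap on the higher side (5.58% of all genes) and 1 on the lower (4.12%), 9.7% of all genes together. On the higher side these were Ass1 and Nos3. The brightest Nos3 feature had 0.38 (SE 0.24), but the 11 features of that gene, 8 of them tested, ran from -0.41 to 0.41. With the replicate block Slc7a1 had an unadjusted p of 0.00259, Slc7a3 of 0.00225 and Ass1 of 0.00862, and their adjusted p-values were 0.425, 0.409 and 0.58, so none passed in limma.

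**Figure D3:**
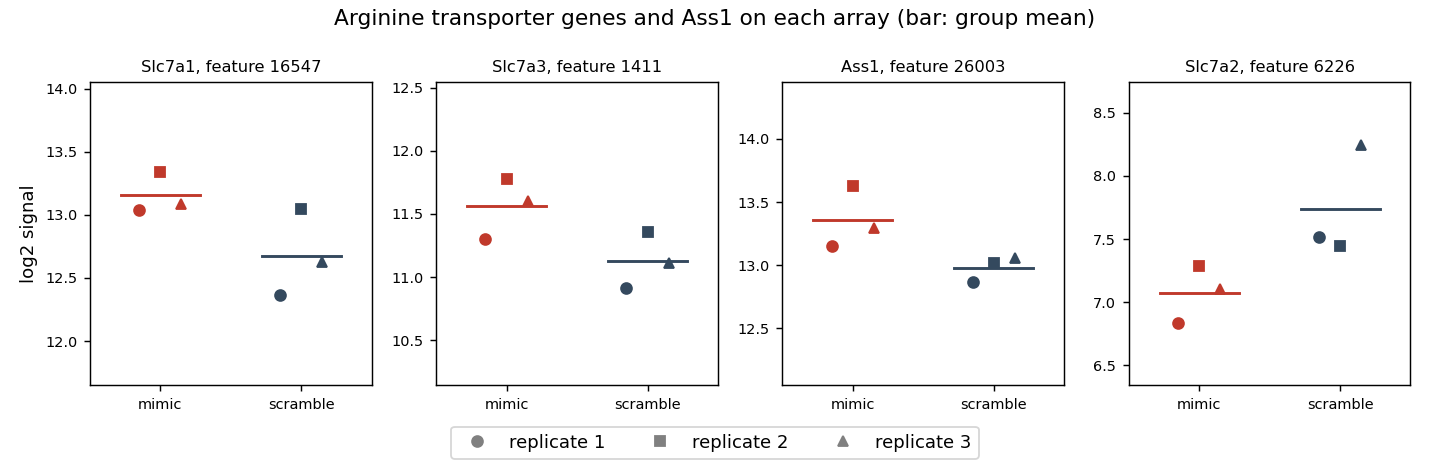
Log2 signal (y axis) of 3 arginine transporter genes and Ass1 on the 3 mimic and 3 scramble arrays (x axis), with symbols for the replicate number and a bar for the group mean. Ass1 is higher and Slc7a2 lower with the mimic without overlap, while Slc7a1 and Slc7a3 overlap between groups; none of the 4 passed the adjusted threshold.

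The medians of the other lists ran from -0.23 to 0.11. Polyamine catabolism and the antizyme paralogs counted 2 higher and 4 lower of 6 genes, at a median of -0.06, which ran from -0.18 without mimic replicate 3 to 0.16 without mimic replicate 1. The antizyme gene Oaz2 had a difference of -0.23 (SE 0.18), which was -0.04 without scramble replicate 1, and the antizyme inhibitor gene Azin2 had 0.24 (SE 0.29) on its brighter feature but -0.37 on the other. Of the 6 polyamine transport genes tested 2 were higher and 4 lower, and their median was -0.23. Without scramble replicate 1 the split was 3 and 3 and the median -0.02, and without mimic replicate 1 it was again 3 and 3, with a median of -0.05. The widest differences among them were -1.62 (SE 1.00) for the transport ATPase gene Atp13a4 and -0.54 (SE 0.36) for Slc12a8. They rested on isolated bright readings of scramble replicate 1, 11.34 and 8.54, without which they were -0.19 and -0.10. The mimic means of these genes, 6.87 and 7.11, lay below the filter level of 7.16. Both genes were thus tested only because of their scramble signal, and their place among the 4 lower shows nothing further.

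The methionine cycle and salvage list, which provides and recycles the aminopropyl donor, counted 5 higher and 4 lower of 9 genes tested. Of the 11 genes listed, Mat1a and Mat2a were not tested. The median of 0.03 ran from -0.06 without scramble replicate 1 to 0.15 without mimic replicate 1. Ahcy, which hydrolyses S-adenosylhomocysteine, had 0.53 (SE 0.38) and the methionine synthase reductase gene Mtrr 0.31 (SE 0.34). Mtrr gave 0.11 without mimic replicate 3 and 0.61 without scramble replicate 2. The value of this Ahcy feature (34235) rested on a low reading on scramble replicate 1 (7.56, against 8.90 and 8.92 on the other scramble arrays), and it was -0.04 without both replicate 1 arrays. The other Ahcy features, 5399 and 30915, had 0.28 (SE 0.39) and 0.17 (SE 0.43) and were higher with the mimic in all 3 same-numbered pairs. Hypusination, the use of spermidine to modify the translation factor eIF5A, had 3 of 4 genes higher, with a median of 0.11 that was 0.02 without scramble replicate 1. Eif5a2 had 0.33 (SE 0.27) and the deoxyhypusine synthase gene Dhps 0.14 (SE 0.14) on its brighter feature and 0.32 (SE 0.42) on the other. With single arrays left out Eif5a2 spanned 0.16 to 0.50 and the brighter Dhps feature 0.069 to 0.19. Omitting both replicate 1 arrays gave 0.027 for that Dhps feature. In the Myc family 4 of 9 genes were higher and 5 lower; the median was -0.09, and without mimic replicate 1 it was 0.03. Mxd1 and Mga, both partners of Max that oppose Myc, had 0.49 (SE 0.29) and 0.49 (SE 0.31) and did not overlap between groups, beside 9.7% of all genes. With both replicate 1 arrays omitted, Mxd1 stood at 0.22 and Mga at 0.24, and Mga had 0.32 without scramble replicate 1 alone. A second Mxd1 feature (29159) had 0.26 (SE 0.37) and overlapped between groups.

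**Figure D4:**
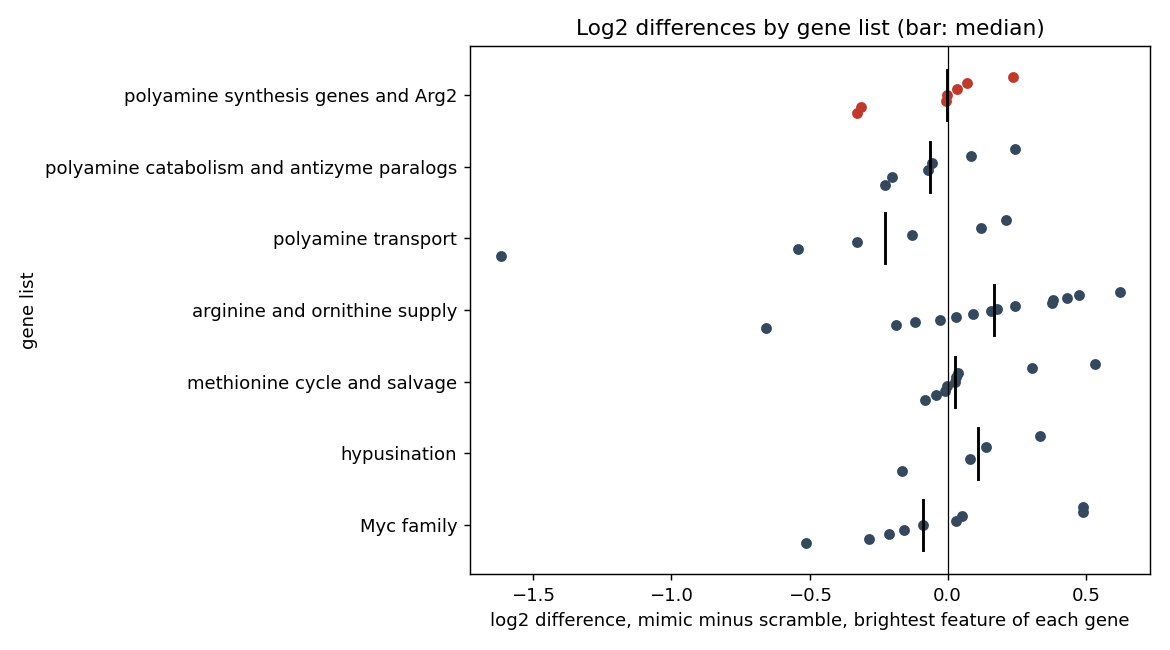
Log2 difference (x axis, mimic minus scramble) of the brightest feature of each gene, by gene list (y axis), with a bar at each median. The polyamine synthesis genes and Arg2 span -0.33 to 0.24 around a median of -0.0005. The genes on the list of arginine and ornithine supply have a median of 0.17.

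The arrays showed the signals of a blastocyst. On all 6 arrays 12 of 13 marker genes of trophectoderm, epiblast and primitive endoderm read above the upper quartile of the unnamed features, with Sox2 the exception. Of the markers tested 1 of 3 for cumulus cells (Foxl2), 0 of 2 for oviduct and 0 of 1 for blood did so, out of 6, 3 and 6 listed. Only 4 of the 6 blood genes had a feature. Foxl2 was bright, at 12.17 to 13.41 over the 6 arrays, beside 12.14 to 13.73 for Cdx2. It was highest on replicate 1 in both groups, and the source of this signal was not tested. In the unpaired fit none of the 19 marker genes tested passed the threshold (limma, adjusted or unadjusted). With the replicate block Cdx2 and Sox17 had unadjusted limma p-values of 0.00505 and 0.0349, and adjusted ones of 0.517 and 0.686. Of all features 7.09% fell under 0.05 unadjusted with that block. Of the 13 blastocyst markers 5 were higher and 8 lower with the mimic, with log2 differences from -0.62 for the trophectoderm gene Cdx2, lower in all 3 same-numbered pairs, to 0.51 for the epiblast gene Sox2. Among these markers Sox2 was higher without overlap between groups (5.58% of all genes), and Krt8 (-0.27) and Nanog (-0.34) were lower without overlap (4.12%). The primitive endoderm genes Sox17 and Gata4 had 0.40 and 0.34. The part of these marker differences in the values of the polyamine genes was not tested.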

How the data were processed

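Log2 signals of 6 one-colour arrays, 3 mimic and 3 scramble, were taken as deposited. The sources used here do not give how the authors corrected background and normalized, and the log2 scale was read from the deposited values, whose array medians were 7.367 to 7.376. These near-equal medians would hide a change shared by most genes. Features were named from the platform annotation, with symbols updated by Entrez identifier through RefSeq (GRCm38.p6) for 32438 of 33026. The lowest 25% by mean were left out, which kept 24769 features of 17399 genes. The fit used limma 3.58.1 under R 4.3.3 (eBayes with a trend, two-sided, Benjamini-Hochberg over all features kept), after a test on simulated data. No detection flags were used, and the number of arrays limits precision.

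Genes and lists were chosen with earlier results of these data known. Named genes are all 8 genes by rule, the 2 genes of each list with the smallest unadjusted p, and the 3 genes nearest Arg2 and Odc1. Outside this rule, Ass1, Slc7a2, Nos3, Otc, Slc25a2 and the single marker genes were picked after their values were seen, and Amd2 stands in for Amd1. Same-numbered arrays deviated together (correlations 0.336, 0.352 and 0.209 for replicates 1 to 3), all above the limit of 0.1 set for taking the replicate numbers as pairs. Mimic 3 with scramble 2 (0.196) and mimic 2 with scramble 3 (0.129) also passed it, so replicates 2 and 3 are poorly told apart as pairs. This is read from the data, not the labels. Alternatives were other filters, normalizations and variance models, the replicate block, 1 feature or the mean per gene, and arrays left out. Python 3.11.15 and matplotlib 3.10.9 drew the figures.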

Additional observations from a re-analysis of the deposited data

How the results depend on the processing

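No alternative brought any of the 16 features past the threshold. Of the 16, 1 Odc1 feature had an unadjusted limma p under 0.05 in each of 3 settings: when mimic replicate 2, scramble replicate 1 or both replicate 1 arrays were omitted. Over all features limma called 0 of 24769, with 770 at an unadjusted p under 0.05. The alternatives, on 16513 to 33026 features, also called 0, with 552 (without mimic replicate 2 or 3, or 1 feature per gene) to 1470 (without both replicate 1 arrays) unadjusted and 1320 without scramble replicate 2, except the replicate block, where 1 feature, of Ctsll3, was called and 1755 fell under 0.05 unadjusted; the block changed no other call. The median over the 7 genes spanned -0.07 to 0.05 over the fits that omit 1 array. Several differences changed sign, including some of the wider ones (Ahcy 0.53, Azin1 33044 -0.33, Azin2 0.24 and Odc1 15139 -0.22). Averaging all features of a gene gave -0.092 for Odc1, 0.010 for Srm, 0.020 for Sms and -0.062 for Azin2. Leaving out both replicate 1 arrays gave 0.022 for Azin1 feature 33044 and -0.038 for Ahcy, and centring on the 75th percentile gave -0.011 for Azin1 feature 11485. With each array left out in turn the ranges of those that changed sign were -0.065 to 0.16, -0.47 to 0.0031 and -0.11 to 0.33 for Odc1 features 1074, 15139 and 21801, -0.17 to 0.11 and -0.15 to 0.17 for Srm 22144 and 9457, -0.067 to 0.075 and -0.32 to 0.030 for Sms 42556 and 42295, -0.051 to 0.19 and -0.041 to 0.23 for Oaz1 18003 and 13489, -0.35 to 0.54 and -0.079 to 0.12 for Azin1 26993 and 11485, and -0.21 to 0.099 for Amd2 9343. The cause of these changes was not tested. Slc7a1 stayed between 0.32 and 0.66, Slc7a3 between 0.32 and 0.56 and Ass1 between 0.25 and 0.48. Arg2 lay between -0.40 and -0.17, but it was tested only because of its scramble signal, so its unchanged sign shows nothing further. The medians of the 6 gene lists with arrays left out were computed after seeing the data; that of arginine and ornithine supply lay between 0.097 and 0.21.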
